A study of Mus musculus and Homo sapiens with 20 samples.

Results

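The HSP90 co-chaperones and assembly cofactors are 34 genes chosen by name and matched by symbol, ignoring case, in each of 3 tables of RNA-seq counts. All 34 were found once in each table, and human symbols are used for both species. The K562 table held 63568 genes, and 43626 genes were in each mouse table. The study compared cells treated with NVP-AUY922, an inhibitor that occupies the ATP pocket of HSP90, with their controls. The cells were K562 (human leukaemia), MEF (fibroblasts from mouse embryos) and HPC-7 (blood precursors of the mouse, grown as a line). Each line had 3 Control libraries, named in the tables for the solvent DMSO, and 3 inhibitor-treated (HSP90i) libraries. Exposure lasted 16 h. The dose was 300 nM for K562, 200 nM for MEF and 50 nM for HPC-7, so the line and the dose changed together, and with K562 the species too. The labels give no genotype beyond the cell line and do not say whether replicates came from separate cultures. The p-values therefore reflect the variation among these libraries, which may be technical.

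HSP90 is a dimeric chaperone that closes around its client protein when it binds ATP and opens again after hydrolysis. Co-chaperones deliver clients from HSP70, speed or slow the ATP cycle, hold the closed state, or pass clients to ubiquitin enzymes and to multi-protein assembly machines. Several co-chaperone genes are textbook targets of the heat shock factor HSF1, which is released when HSP90 is blocked.

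K562 libraries held 7936066 to 10950573 counts, MEF libraries 10542305 to 22872539 and HPC-7 libraries 10131491 to 16859394. In the controls all 6 erythroid leukaemia markers of K562, 6 of 6 fibroblast markers of MEF and 6 of 6 blood progenitor markers of HPC-7 exceeded 1 CPM (the count as a share of the library, scaled to a fixed total with the trimmed mean of M values, TMM). Markers of other cell types were not all absent. The summed epithelial list lay between 451 and 779 CPM in K562 Control (KRT8, KRT18 and EPCAM above 1 CPM), the summed progenitor list between 189 and 237 CPM in MEF Control (Gata2 and Cd34 above 1 CPM in each control), and the summed fibroblast list between 179 and 203 CPM in HPC-7 Control (Pdgfrb alone above 1 CPM). In HPC-7 the summed progenitor markers went from between 2480 and 2500 CPM in Control to between 4106 and 4565 CPM in HSP90i, but not as one. Kit, Tal1 and Ptprc rose, Kit from a mean of 987 to 2522 CPM, while Cd34 fell from 342 to 56.7 CPM and Gata2 and Lmo2 were not called. In HPC-7 the 3 erythroid markers of the mouse table went from between 378 and 389 to between 782 and 927 CPM. In MEF the summed fibroblast markers went from between 18640 and 19830 to between 24010 and 24920 CPM. The collagen genes Col1a1, Col1a2 and Col3a1 rose, whereas Pdgfrb fell from 250.1 to 158.5 CPM, Thy1 fell from 5.80 to 3.84 CPM and Fn1 was not called. In K562 GATA1 fell from 198.8 to 106.5 CPM, and the other erythroid markers were not called. GATA2 fell there from 132.6 to 36.7 CPM, and KIT, LMO2, TAL1 and PTPRC were not called. The part of these shifts in the results was not tested.

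Some libraries stood apart from their group. K562 Control replicate 1 differed from the other K562 controls by a chi-square of 43.6 and 55.2 per degree of freedom over genes, against 5.43 between those others. MEF Control replicate 3 differed from the other MEF controls by 11.2 and 11.1, against 3.45 between those. It also held more of the blood progenitor markers, with Kit at 7.32 CPM (0.0881 and 0 in the other MEF controls), Tal1 at 2.66 (0.044 and 0), Ptprc at 1.24 (0.132 and 0) and Lmo2 at 0.856 CPM (0 and 0). Among the treated MEF libraries HSP90i replicate 3 held the same transcripts at lower levels. There Kit was at 0.979 CPM, Ptprc at 0.445, Tal1 at 0.178 and Lmo2 at 0.089 CPM, each 0 in the other treated libraries. The part of this in the MEF results was not tested. Without MEF Control replicate 3, 14 members rose and 18 fell in MEF, where 37.1% of all genes rose and 37.1% fell. Without MEF HSP90i replicate 3, 10 rose and 17 fell, where 32.8% of all genes rose and 35.8% fell. The treated HPC-7 libraries differed among themselves by 9.07 to 16.0, and HSP90i replicate 2 was the highest of them in 16 of the 19 members that fell in HPC-7. The share of all genes with this order was not determined, so it is no result about the members. RNA came from whole cultures, so a change in the mix of cells and a change of RNA per cell cannot be told apart.

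Treatment raised a set of co-chaperone mRNAs in K562, and in the mouse lines it moved most members, more of them down than up. In K562, 9 of 34 members rose and 0 fell at an adjusted p under 0.05 (edgeR, quasi-likelihood), where 11.1% of all 13456 tested genes changed, 5.11% up and 5.97% down. At an unadjusted p under 0.05 the counts were 13 higher and 1 lower, where 1642 of the 13456 genes were higher and 1989 lower. DESeq2 called 10 members higher and 0 lower, and 7.01% of all genes higher and 7.19% lower. In MEF 12 members rose and 18 fell, where 73.4% of 12340 tested genes changed, 35.1% up and 38.2% down. In HPC-7 11 rose and 19 fell, where 73.1% of 11703 changed, 36.5% up and 36.6% down. With so many genes called in the mouse lines, a share of members near 36.5% is the background and not a result about the members. The median log2 fold change (HSP90i over Control) of the 34 members was 0.12 for K562 (all tested genes −0.022), −0.23 for MEF (−0.015) and −0.35 for HPC-7 (−0.0024). All 34 passed the filter on low counts in each line, and the smallest count of any member in any library was 30.

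**Figure D1:**
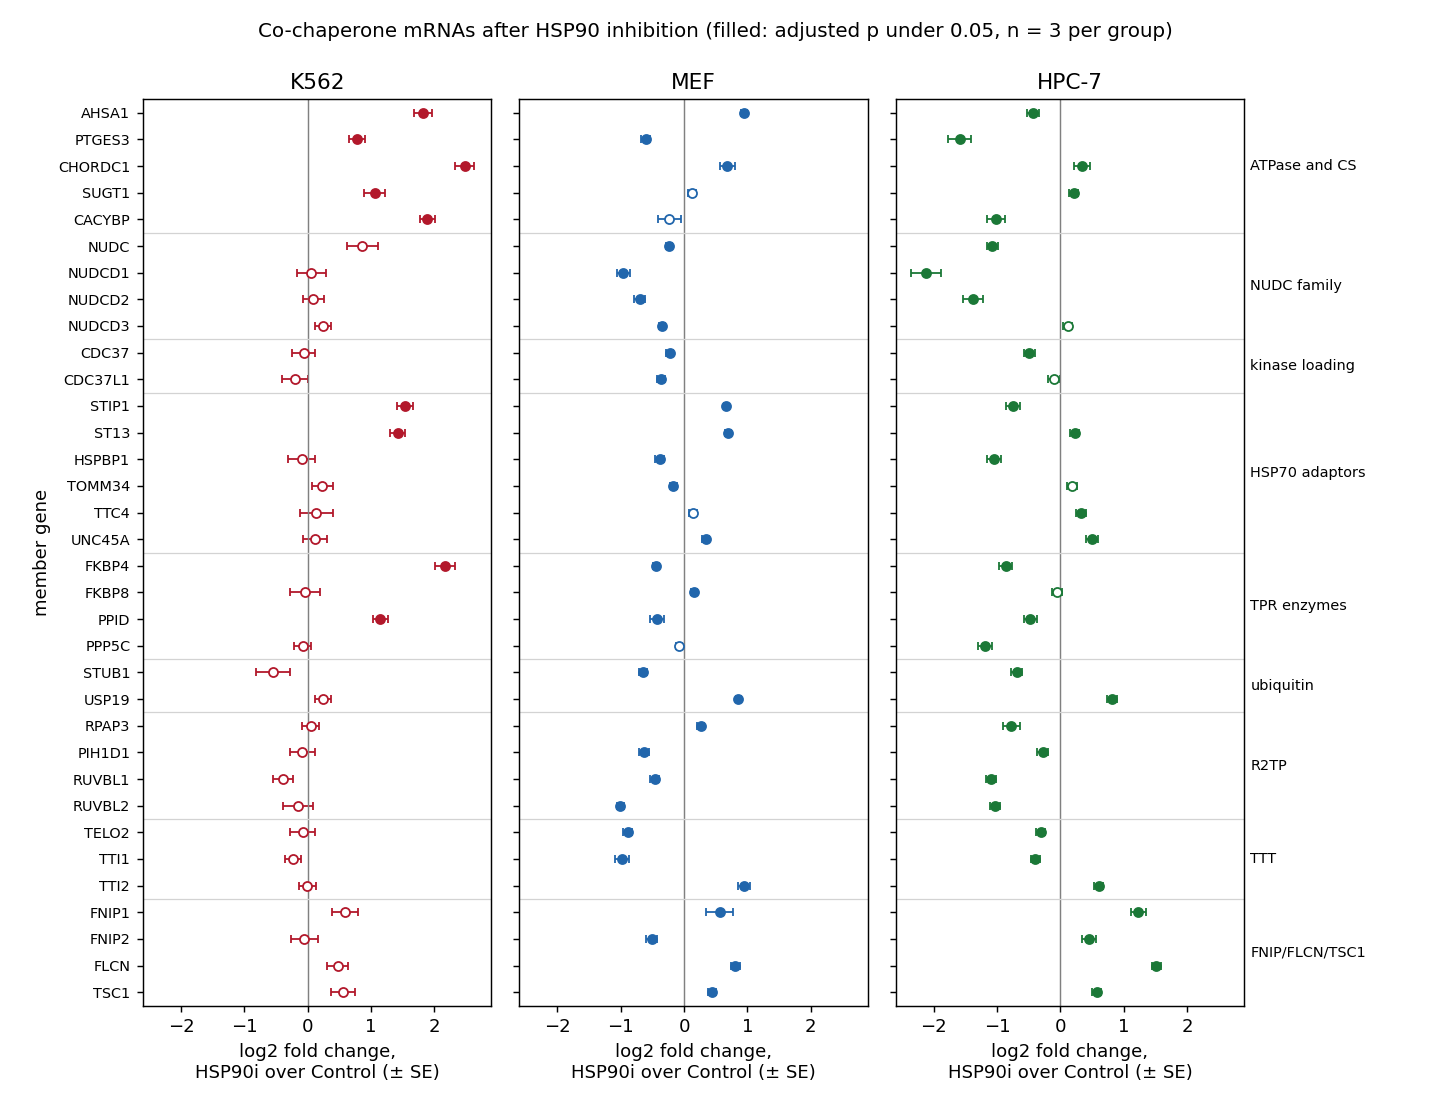
Log2 fold change (HSP90i over Control) with its standard error for the 34 members in rows, grouped by role, and the 3 lines in panels. Filled points passed edgeR's test at an adjusted p under 0.05 (n = 3 per group). In K562 the filled points are 9 and all lie to the right of 0, between 0.78 and 2.48, while MEF has 12 to the right and 18 to the left and HPC-7 11 and 19.

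The K562 count rested in part on 1 control library. Without Control replicate 1, 17 members rose and 1 fell, where 14.0% of all genes rose and 14.6% fell. The members added on the higher side were NUDC, NUDCD3, TOMM34, UNC45A, FKBP8, FNIP1, FLCN and TSC1, and the lower one was FNIP2. FKBP8 changed sign with that library, from −0.046 to 0.31. Control replicate 1 lay outside the range of the other 5 libraries in 19 of the 25 members that were not called in K562, a share near the 70.5% of all tested genes not called in K562. In the treated and control groups of K562, values did not overlap for 13 members on the higher and 2 on the lower side, where 35.2% of all tested genes had no overlap. The same counts were 13 and 19 in MEF (76.2% of tested genes) and 11 and 19 in HPC-7 (77.4%).

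The regulators of the HSP90 ATPase and the cofactors built on a CS domain rose in K562, 5 of 5 with a median of 1.81, where 5.11% of all genes rose. They split in the mouse lines. CHORDC1, a co-chaperone that binds the ATPase domain of HSP90, measured 47.5, 64.2 and 60.6 CPM in the K562 controls and 315, 348 and 296 CPM after treatment. All treated values lay far above the controls, which is 2.48 ± 0.16 on the log2 scale, with its standard error (adjusted p = 6.52e-05). Each adjusted p comes from edgeR, by the Benjamini-Hochberg method over all tested genes. In MEF it went from 79.6, 90.2 and 61.1 to 117, 123 and 132 CPM, again without overlap (0.69 ± 0.12, adjusted p = 0.000955). In HPC-7 it measured 134, 124 and 126 CPM in Control and 126, 187 and 174 CPM in HSP90i. Here the first treated library fell inside the control range, and the call (0.34 ± 0.13, adjusted p = 0.0350) was lost in 5 of 12 alternative settings, with adjusted p from 0.0659 to 0.112 in those.

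Promoter windows of 300 bases, from 250 before to 50 after a start listed for the gene, were taken for the mouse members from RefSeq (GRCm38.p6). It held 34 windows for 30 of the 34 members, and NUDCD1, ST13, PPID and TTI2 had none. A gene was counted if any of its windows held a match, and a listed start can lie inside the gene. The Pih1d1 windows with a match, from 45154053 and from 45155579 on chromosome 7, lay inside its gene (45150613 to 45160065). HSF1 binds heat shock elements, inverted repeats of GAA and TTC. A run of 3 alternating units (GAA, TTC, GAA or TTC, GAA, TTC, with any 2 bases between units, both strands covered) occurred in 1 of the 30 members, Chordc1, and in 0.662% of the 27025 genes of the table. The shorter 2-unit form, GAANNTTC or TTCNNGAA, which every 3-unit match also holds, occurred in 7 of 30 members (Cdc37, Chordc1, Fkbp4, Nudc, Pih1d1, Rpap3 and Stub1) and in 17.0% of all genes. The windows of Chordc1 (chr9:18292017-18292316, plus strand, gene at chromosome 9, 18292267 to 18314000), Fkbp4 (chr6:128438607-128438906, minus strand, gene at chromosome 6, 128430103 to 128438656) and Stip1 (chr19:7039977-7040276, minus strand, gene at chromosome 19, 7020696 to 7040026) are shown because all 3 genes rose in K562 and they differ in the mouse lines. Each reads 5′ to 3′ along the gene, with every 2-unit match in capitals.
Chordc1: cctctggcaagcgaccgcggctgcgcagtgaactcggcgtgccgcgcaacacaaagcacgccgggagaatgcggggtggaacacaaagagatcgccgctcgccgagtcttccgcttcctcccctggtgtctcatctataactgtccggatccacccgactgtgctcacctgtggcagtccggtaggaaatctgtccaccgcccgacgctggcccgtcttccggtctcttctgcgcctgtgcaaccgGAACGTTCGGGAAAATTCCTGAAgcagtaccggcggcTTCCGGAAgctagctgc
Fkbp4: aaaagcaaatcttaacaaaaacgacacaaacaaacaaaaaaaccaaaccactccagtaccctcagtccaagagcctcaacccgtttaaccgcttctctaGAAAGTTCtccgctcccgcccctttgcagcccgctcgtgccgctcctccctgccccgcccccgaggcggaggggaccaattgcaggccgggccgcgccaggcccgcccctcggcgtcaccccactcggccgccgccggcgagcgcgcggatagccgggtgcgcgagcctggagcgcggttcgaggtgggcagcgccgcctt
Stip1: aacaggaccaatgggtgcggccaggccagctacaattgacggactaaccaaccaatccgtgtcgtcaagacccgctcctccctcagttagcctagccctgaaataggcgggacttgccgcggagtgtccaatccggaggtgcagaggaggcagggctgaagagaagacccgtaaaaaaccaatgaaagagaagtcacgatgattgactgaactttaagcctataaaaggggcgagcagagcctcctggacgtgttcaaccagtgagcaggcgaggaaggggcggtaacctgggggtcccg
In Chordc1 the capitals run over the gene start, as 4 overlapping matches that begin 4 bases before it and 1, 6 and 11 bases after it, and a further match begins 33 bases after it. The single Fkbp4 match begins 151 bases before the start, and the Stip1 window has none. Of the other members with a 2-unit match, Cdc37, Nudc, Pih1d1, Rpap3 and Stub1, none was called in K562. AHSA1, PTGES3, CACYBP and SUGT1 rose in K562, and their mouse windows had no match. The windows are of the mouse, and no human promoter was read. A match is a description of the letters and not a measured binding site.

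AHSA1, the strongest known activator of the HSP90 ATPase, went up in K562 and MEF and down in HPC-7. Its K562 values were 93.0, 71.4 and 73.3 CPM in Control and 271, 292 and 273 CPM in HSP90i, a rise of 1.81 ± 0.14 on the log2 scale (adjusted p = 0.000266). In MEF the controls at 194, 190.5 and 205 CPM lay below the treated libraries at 372, 389 and 377 CPM (0.95 ± 0.045, adjusted p = 2.32e-07). The order turned in HPC-7, where 209.5, 225 and 234 CPM in Control stood above 158, 191 and 147 CPM in HSP90i (−0.43 ± 0.10, adjusted p = 0.00266). No group overlapped its partner in any of the 3 lines.

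PTGES3, the p23 protein that holds HSP90 in its closed form, rose in K562 and fell in both mouse lines. K562 controls had 437, 393 and 364 CPM and treated libraries 698, 727 and 626 CPM (0.78 ± 0.13, adjusted p = 0.00760), a call lost without HSP90i replicate 1 or 2 (adjusted p = 0.0586 and 0.0582). MEF went from 299, 349 and 299 to 197, 212 and 213 CPM (−0.61 ± 0.069, adjusted p = 5.45e-05). HPC-7 fell from 293, 283 and 283 to 70.8, 131 and 83.8 CPM (−1.59 ± 0.18, adjusted p = 2.87e-05), with the second treated library nearest to the controls. CACYBP, a CS-domain protein that binds the ubiquitin ligase SIAH1, rose in K562 from 136, 137 and 124 to 473, 528 and 467 CPM (1.89 ± 0.12, adjusted p = 7.21e-05). In HPC-7 it fell from 183, 176 and 177 to 69.4, 109.5 and 86.1 CPM (−1.02 ± 0.14, adjusted p = 7.72e-05), again highest among the treated in the second library. In MEF the groups overlapped (−0.23 ± 0.18, adjusted p = 0.269), with Control replicate 3 at 95.3 CPM below the other controls at 149.9 and 165 CPM. Without that control the MEF value was −0.39 (adjusted p = 0.000796). SUGT1, which links HSP90 to ubiquitin ligases and to kinetochore assembly, rose by 1.05 ± 0.17 in K562 (adjusted p = 0.00796) and by 0.21 ± 0.074 in HPC-7 (adjusted p = 0.0270), and was not called in MEF (0.12 ± 0.062, adjusted p = 0.111). The K562 call was lost without HSP90i replicate 1 or 2 (adjusted p = 0.0525 and 0.0584) and the HPC-7 call in 7 of 12 alternative settings (adjusted p from 0.0540 to 0.137 in those).

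**Figure D2:**
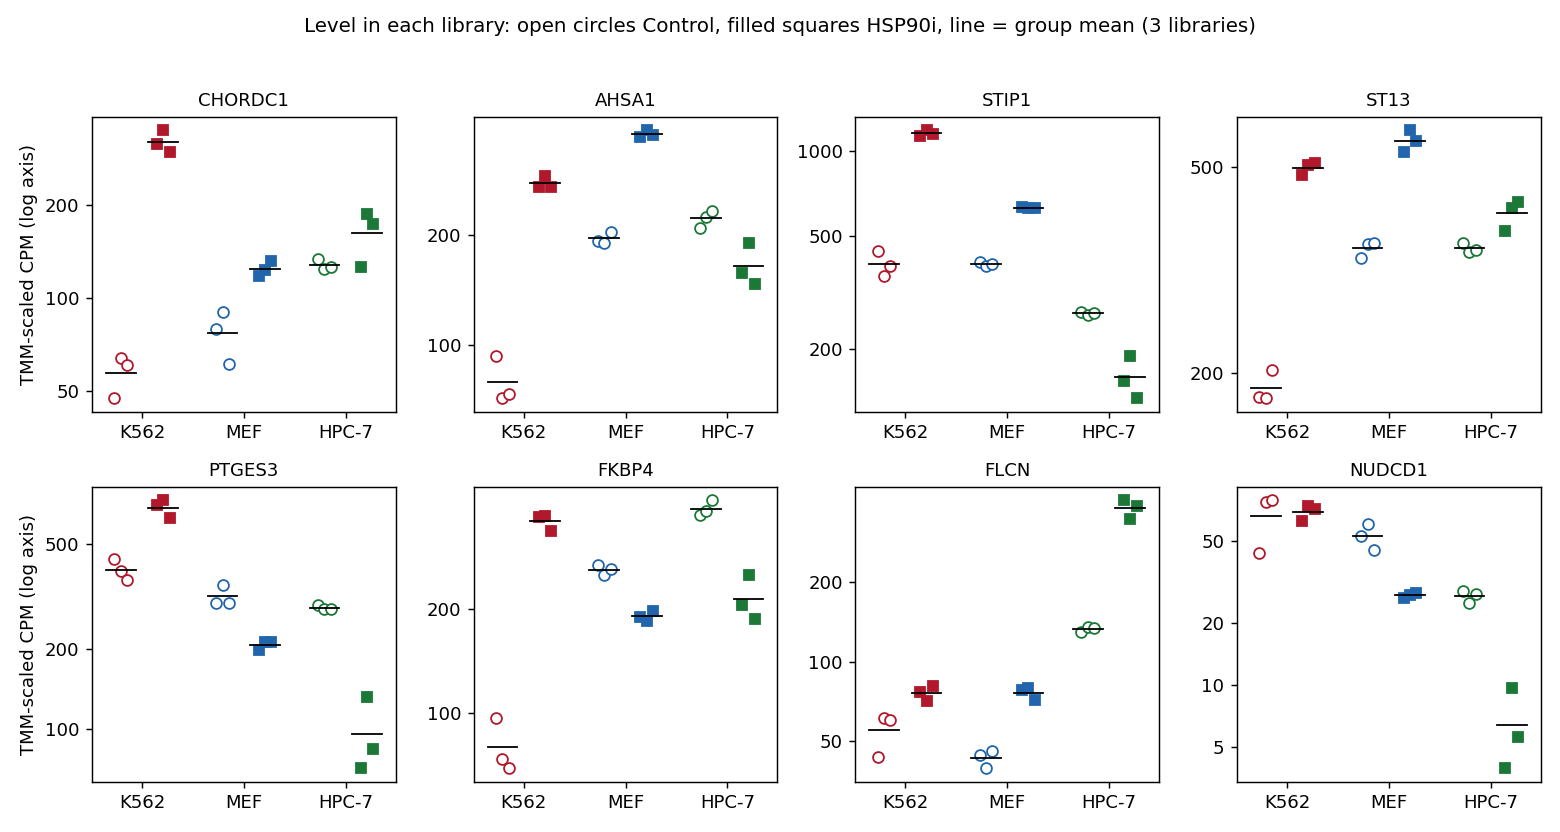
TMM-scaled CPM on a log axis in every library for 8 members, with open circles for Control, filled squares for HSP90i and a line at the mean of the 3 libraries of a group. CHORDC1 and ST13 rose in each line by edgeR's test, AHSA1 and STIP1 turned down in HPC-7, PTGES3 and FKBP4 turned down in both mouse lines, FLCN has its largest step in HPC-7, and NUDCD1 fell in MEF and HPC-7 and overlapped in K562.

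The NUDC family holds CS-domain proteins around NUDC, a partner of the dynein motor that also serves HSP90 clients. In K562 none of the 4 was called by edgeR (1 higher and 0 lower at an unadjusted p under 0.05), while in MEF 4 of 4 fell (median −0.53) and in HPC-7 3 of 4 fell (median −1.22). Of all genes, 11.1% were called in K562, and 38.2% fell in MEF and 36.6% in HPC-7. NUDCD1, a NUDC relative, had 28.5, 25.0 and 27.6 CPM in the HPC-7 controls and 3.92, 9.70 and 5.57 CPM after treatment. That was the largest decrease of any member in any line (−2.12 ± 0.24, adjusted p = 2.25e-05). In MEF it went from 52.9, 60.9 and 45.3 to 26.3, 27.4 and 28.1 CPM (−0.96 ± 0.10, adjusted p = 3.66e-05), without overlap. K562 gave 43.6, 77.2 and 79.0 CPM and 62.5, 74.0 and 71.6 CPM, which overlapped (0.059 ± 0.22, adjusted p = 0.895).

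NUDC itself was at 219.8, 216 and 225 CPM in the HPC-7 controls and at 105, 117 and 92.0 CPM in the treated libraries, which is less than any control (−1.07 ± 0.09, adjusted p = 3.69e-06). Its decrease in MEF was small, from 167, 160.1 and 168 to 141, 144 and 133 CPM (−0.24 ± 0.048, adjusted p = 0.00175), and was not called when both mouse lines were fitted together (adjusted p = 0.165). In K562 all treated values, 296, 308 and 268 CPM, exceeded the controls, 234, 126 and 120.2 CPM, but the first control stood far from the others and the test was not passed (0.86 ± 0.25, adjusted p = 0.0594). Without that control the value was 1.24 (adjusted p = 3.29e-07), and DESeq2 and the replicate block also called it (adjusted p = 0.0121 and 0.0167). NUDCD2 fell by 0.70 in MEF and 1.37 in HPC-7 on the log2 scale. NUDCD3 fell in MEF (−0.35 ± 0.047) and was not called in HPC-7 (0.11 ± 0.075, adjusted p = 0.196).

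CDC37 brings protein kinases to HSP90, and CDC37L1 is its relative. Neither was called in K562 by edgeR, also not at an unadjusted p under 0.05. CDC37 fell in HPC-7 from 240.2, 257 and 275 to 195, 189.7 and 164 CPM (−0.49 ± 0.085, adjusted p = 0.000448). In MEF the controls at 243, 220.4 and 248 CPM stood above 209.8, 196 and 202 CPM (−0.23 ± 0.056, adjusted p = 0.00567), a call lost when both mouse lines were fitted together (adjusted p = 0.245), and also when Control replicate 1 was left out (0.0560). CDC37L1 was the member with the lowest count rate in K562, at 4.43, 4.31 and 4.54 CPM in Control and 3.69, 4.50 and 3.34 CPM in HSP90i. In MEF it fell from 46.1, 45.3 and 45.0 to 34.2, 38.5 and 33.4 CPM (−0.37 ± 0.066, adjusted p = 0.000996), and in HPC-7 it was not called (−0.10 ± 0.09, adjusted p = 0.323). Neither gene of the kinase-loading pair was called higher in any line (edgeR, and 0 at an unadjusted p under 0.05 in each). Most genes were not called higher either: the share that rose was 36.5% for HPC-7, 35.1% for MEF and only 5.11% for K562. A pair is too small to be set apart from this background, so the missing calls are no result about it.

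Among the adaptors between HSP70 and HSP90, STIP1 and ST13 were the 2 that rose in K562. STIP1, the HOP protein that bridges the chaperones, had 442, 362 and 392 CPM in the K562 controls and 1126, 1184 and 1151 CPM after treatment (1.53 ± 0.12, adjusted p = 0.000287). The MEF controls, 406, 392 and 400.3 CPM, lay below the treated libraries, 636, 629.6 and 628 CPM (0.66 ± 0.037, adjusted p = 6.22e-07). In HPC-7 the direction was opposite, with 271, 264 and 269 CPM in Control and 155, 189 and 134 CPM in HSP90i (−0.75 ± 0.11, adjusted p = 0.000139). STIP1 and AHSA1 were the members called higher in both K562 and MEF and lower in HPC-7.

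ST13, the HIP protein that stabilises client-bound HSP70, rose in all 3 lines. It went from 179, 178 and 202 to 482, 506 and 509 CPM in K562 (1.42 ± 0.12, adjusted p = 0.000347) and from 333, 355 and 356 to 535, 589 and 563 CPM in MEF (0.69 ± 0.05, adjusted p = 3.03e-06). The HPC-7 step, from 357, 342 and 346 to 376, 417 and 428 CPM, was the smallest (0.22 ± 0.071, adjusted p = 0.0164). It showed no overlap, and its call was lost in 4 of 12 alternative settings (adjusted p from 0.0571 to 0.0797 in those). Across all lines 2 of 34 members, CHORDC1 and ST13, were thus called higher in each, where 1.91% of the 8322 genes tested in all lines and matched by symbol were. The HPC-7 call of both depended on the setting, and 0 members were called lower in all 3 lines, K562 having no lower call (1.63% of genes).

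HSPBP1, a nucleotide exchange factor of HSP70, was lower in both mouse lines. In HPC-7 it went from 43.9, 43.7 and 52.5 to 22.1, 25.1 and 20.8 CPM (−1.04 ± 0.11, adjusted p = 1.34e-05) and in MEF from 47.2, 42.6 and 42.4 to 35.5, 32.0 and 33.6 CPM (−0.39 ± 0.069, adjusted p = 0.000914), while K562 values overlapped (−0.10 ± 0.22, adjusted p = 0.818). UNC45A, a chaperone of myosin, rose in MEF (0.34 ± 0.056) and HPC-7 (0.50 ± 0.089). TTC4, a co-chaperone with tetratricopeptide (TPR) repeats, the fold that grips the tail of HSP90, rose in HPC-7 (0.33 ± 0.077) and was near the low end of the K562 range at 4.62, 4.40 and 7.17 CPM in Control. TOMM34, a TPR protein that handles mitochondrial precursors, was called lower in MEF (−0.17 ± 0.061, adjusted p = 0.0348), but the call was absent in 11 of 12 alternative settings (adjusted p from 0.0383 to 0.570 over all 12).

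The TPR immunophilins, prolyl isomerases that sit on the HSP90 tail, and the phosphatase PPP5C split by line. In K562 2 of 4 rose, in MEF 1 rose and 2 fell, and in HPC-7 3 fell and none was called higher by edgeR (0 at an unadjusted p under 0.05). Of all genes, 5.11% rose in K562, 35.1% rose and 38.2% fell in MEF, and 36.5% rose and 36.6% fell in HPC-7. FKBP4, the immunophilin of steroid receptor complexes, went from 96.6, 73.8 and 69.3 to 367, 369.9 and 335 CPM in K562 (2.16 ± 0.16, adjusted p = 0.000175). It fell in MEF from 267, 249.7 and 261 to 189, 185 and 197 CPM (−0.45 ± 0.047, adjusted p = 3.28e-05) and in HPC-7 from 374, 383 and 411 to 205, 249 and 187 CPM (−0.87 ± 0.10, adjusted p = 3.50e-05). No groups overlapped, so the direction differed between K562 and both mouse lines in every library. The difference between species was not tested.

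PPID, the cyclophilin Cyp40, followed the same directions as FKBP4. K562 rose from 78.8, 71.9 and 76.7 to 164, 172 and 167 CPM (1.15 ± 0.12, adjusted p = 0.000994), MEF fell from 129.8, 145 and 102 to 94.4, 90.7 and 95.8 CPM (−0.42 ± 0.11, adjusted p = 0.00786) and HPC-7 from 249, 227 and 216 to 145, 189 and 164 CPM (−0.47 ± 0.10, adjusted p = 0.00165). PPP5C, which removes a phosphate from CDC37, fell in HPC-7 from 136, 151 and 143 to 60.4, 74.5 and 54.2 CPM (−1.18 ± 0.11, adjusted p = 7.07e-06). It was not called in MEF (−0.08 ± 0.053, adjusted p = 0.204) or K562 (−0.075 ± 0.13, adjusted p = 0.770). FKBP8, an immunophilin anchored in the mitochondrial and ER membranes, was called in MEF (0.16 ± 0.05, adjusted p = 0.0188), but not without HSP90i replicate 1 or 3 (adjusted p = 0.0555 and 0.0580).

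Of the 9 members that rose in K562, 4 rose in MEF (AHSA1, CHORDC1, STIP1 and ST13) and 3 fell there (PTGES3, FKBP4 and PPID). In HPC-7 3 of the 9 rose (CHORDC1, SUGT1 and ST13) and 6 fell (AHSA1, PTGES3, CACYBP, STIP1, FKBP4 and PPID). Over all 493 genes called higher in K562 and tested in each line, 48.5% rose and 32.9% fell in MEF, and 44.2% rose and 35.7% fell in HPC-7.

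The ubiquitin enzymes moved in opposite directions in the mouse lines. STUB1, the CHIP ligase that marks HSP70 and HSP90 clients for degradation, fell in MEF from 140.2, 128 and 143 to 93.8, 81.9 and 86.1 CPM (−0.65 ± 0.067, adjusted p = 3.00e-05) and in HPC-7 from 77.8, 81.5 and 81.9 to 50.4, 54.8 and 44.4 CPM (−0.69 ± 0.088, adjusted p = 5.52e-05). In K562 the first control, at 100.3 CPM, was far above the other controls at 55.5 and 47.3 CPM, and the treated values were 50.2, 45.8 and 43.0 CPM (−0.55 ± 0.26, adjusted p = 0.223). USP19, a deubiquitinase with CS domains, rose in MEF from 149, 147 and 147 to 261, 271 and 269 CPM (0.85 ± 0.041, adjusted p = 2.42e-07). Its step in HPC-7 was of similar size, from 247, 268 and 267 to 486, 425 and 464 CPM (0.81 ± 0.075, adjusted p = 6.65e-06), and in K562 it was not called (0.24 ± 0.13, adjusted p = 0.278). The difference between both mouse responses of USP19 was 0.16 ± 0.09 (adjusted p = 0.186).

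R2TP is the assembly machine of RPAP3, PIH1D1 and the paired AAA+ ATPases RUVBL1 and RUVBL2, which works with HSP90 on RNA polymerases, small nucleolar particles and large kinases. In HPC-7 4 of 4 subunits fell (median −0.90), in MEF 3 fell and 1 rose (median −0.55), and in K562 none was called by edgeR (0 higher and 1 lower at an unadjusted p under 0.05). Of all genes, 36.6% fell in HPC-7, 38.2% fell and 35.1% rose in MEF, and 11.1% were called in K562. RUVBL2 fell from 107, 107 and 114 to 56.6, 54.2 and 51.9 CPM in MEF (−1.01 ± 0.055, adjusted p = 5.23e-07) and from 138, 138 and 149 to 70.1, 74.4 and 63.8 CPM in HPC-7 (−1.03 ± 0.079, adjusted p = 2.44e-06). RUVBL1 fell in HPC-7 from 119, 124 and 127 to 55.7, 62.4 and 54.9 CPM (−1.10 ± 0.077, adjusted p = 1.54e-06), to under the level of any control, and in MEF by 0.46 on the log2 scale. In K562 RUVBL1 had 75.3, 58.8 and 55.6 CPM in Control and 45.6, 52.4 and 46.9 CPM in HSP90i, without overlap but short of the threshold (−0.39 ± 0.15, adjusted p = 0.145).

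RPAP3, the TPR scaffold that docks R2TP on HSP90, was the subunit that rose in MEF. It went from 38.6, 41.5 and 41.9 to 49.3, 48.6 and 48.5 CPM there (0.27 ± 0.056, adjusted p = 0.00232) and from 27.9, 26.2 and 28.7 down to 14.3, 20.1 and 14.3 CPM in HPC-7 (−0.77 ± 0.13, adjusted p = 0.000456). PIH1D1, the adaptor that recruits clients to R2TP, fell in MEF (−0.64 ± 0.079) and HPC-7 (−0.28 ± 0.082). The K562 values of RPAP3, PIH1D1 and RUVBL2 overlapped between groups.

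The TTT complex, TELO2 with TTI1 and TTI2, stabilises the kinases of the mTOR and ATM family together with R2TP. In both mouse lines TELO2 and TTI1 fell and TTI2 rose. TELO2 went from 31.6, 29.7 and 29.1 to 17.0, 16.3 and 15.6 CPM in MEF (−0.89 ± 0.072, adjusted p = 6.43e-06) and from 53.6, 55.5 and 57.5 to 45.1, 45.6 and 43.7 CPM in HPC-7 (−0.31 ± 0.073, adjusted p = 0.00324). TTI1 fell in MEF, where the controls had 28.4 ± 2.80 CPM and the treated libraries 14.4 ± 1.57 CPM (SD, n = 3 each; −0.98 ± 0.11, adjusted p = 4.34e-05), and in HPC-7 from 59.6, 63.9 and 59.0 to 48.7, 45.3 and 44.8 CPM (−0.39 ± 0.077, adjusted p = 0.000985). TTI2 had the opposite sign, with 16.6, 16.7 and 13.4 CPM in the MEF controls and 30.6, 30.5 and 29.5 CPM after treatment (0.95 ± 0.091, adjusted p = 1.84e-05). In HPC-7 it rose from 30.5, 28.4 and 29.3 to 44.3, 44.3 and 45.6 CPM (0.60 ± 0.077, adjusted p = 5.36e-05). In K562 TTI1 had 74.7, 71.4 and 81.2 CPM in Control and 62.7, 61.5 and 68.8 CPM in HSP90i, without overlap. The K562 log2 fold changes of the 3 genes ran from −0.24 (TTI1) to −0.0067 (TTI2) and none was called by edgeR, also not at an unadjusted p under 0.05.

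FNIP1 and FNIP2 bind folliculin (FLCN) and slow the HSP90 ATPase, and TSC1 acts on HSP90 in a related way. FLCN also controls the Rag GTPases of the mTORC1 pathway, which TSC1 restrains through its complex with TSC2. In HPC-7 4 of 4 rose (median 0.90) and in MEF 3 rose and 1 fell (median 0.50). Of all genes, 36.5% rose in HPC-7, and 35.1% rose and 38.2% fell in MEF. In K562 none was called by edgeR, with 3 higher and 0 lower at an unadjusted p under 0.05. FLCN showed the largest increase of any member in HPC-7, from 129, 135 and 134 to 406, 344 and 388 CPM (1.52 ± 0.078, adjusted p = 3.41e-07). In MEF it went from 44.5, 39.6 and 46.0 to 77.8, 79.3 and 71.4 CPM (0.81 ± 0.072, adjusted p = 1.07e-05). The K562 groups, 43.5, 61.2 and 60.2 and 77.1, 71.0 and 80.7 CPM, did not overlap but were short of the threshold (0.47 ± 0.16, adjusted p = 0.0986).

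FNIP1 rose in HPC-7 from 101, 102 and 91.7 to 189, 227 and 277 CPM (1.23 ± 0.12, adjusted p = 1.20e-05). Its MEF controls were scattered, at 39.1, 51.9 and 25.4 CPM against 55.2, 53.2 and 63.4 CPM in HSP90i, and the MEF call (0.56 ± 0.21, adjusted p = 0.0362) was lost in 6 of 12 alternative settings (adjusted p from 0.0523 to 0.116 in those). FNIP2 went in opposite directions in the mouse lines. It fell in MEF from 26.2, 29.9 and 24.1 to 18.3, 18.9 and 19.0 CPM (−0.51 ± 0.09, adjusted p = 0.000835) and rose in HPC-7 from 72.5, 69.6 and 66.7 to 92.2, 82.1 and 111 CPM (0.45 ± 0.11, adjusted p = 0.00334). TSC1 rose in both, by 0.44 ± 0.062 in MEF and 0.57 ± 0.07 in HPC-7. In K562 TSC1 and FNIP1 had 0.55 ± 0.19 and 0.58 ± 0.21 (adjusted p = 0.105 and 0.108), and both passed with the replicate block (adjusted p = 0.0460 and 0.0413) and without Control replicate 1 (0.0285 and 0.00666).

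In the mouse lines together, 8 members rose in both (19.5% of the 8322 matched genes did), 14 fell in both (28.5%) and 4 were called in opposite directions (11.5%). Those 4 were AHSA1, STIP1 and RPAP3, higher in MEF and lower in HPC-7, and FNIP2, with the reverse. The difference between responses was tested in 1 model of the 12 mouse libraries as the interaction between line and treatment, where line and dose cannot be told apart. It was called for 21 members (43.2% of genes), 16 with the more positive response in MEF and 5 in HPC-7, where 25.4% and 17.8% of all 13720 genes were. This split moved with the scaling: the median difference of all genes was 0.11 with TMM, −0.012 with RLE factors (the size factors of DESeq2) and between −0.11 and −0.096 without any 1 of the HPC-7 controls. With RLE factors 14 and 8 members were called, where 20.2% and 22.5% of all genes were. Without HPC-7 Control replicate 1 the counts were 11 and 10, where 15.5% and 24% of all genes were. Without replicate 2 or 3 the counts were 11 and 8. The shares of all genes were then 15.7% and 23.5% (replicate 2) and 15.4% and 23.8% (replicate 3).

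The 6 members whose responses differed by at least 1 on the log2 scale moved by more than this shift. They were STIP1 (1.53 ± 0.13, adjusted p = 4.90e-07), AHSA1 (1.50 ± 0.12, adjusted p = 3.33e-07), NUDCD1 (1.28 ± 0.26, adjusted p = 0.00121), PPP5C (1.22 ± 0.13, adjusted p = 4.67e-06), RPAP3 (1.16 ± 0.15, adjusted p = 2.21e-05) and PTGES3 (1.11 ± 0.22, adjusted p = 0.000850). All 6 had the more positive value in MEF. On the HPC-7 side the largest differences were those of FNIP2 (−0.84 ± 0.15, adjusted p = 0.000311) and FLCN (−0.59 ± 0.12, adjusted p = 0.00113). TSC1, SUGT1 and UNC45A had the smallest differences, at −0.018 ± 0.10, 0.029 ± 0.11 and −0.041 ± 0.11, and were not called. The 5 of 21 calls that some alternative setting removed were CACYBP, CDC37, FKBP4, FKBP8 and TTI2.

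**Figure D3:**
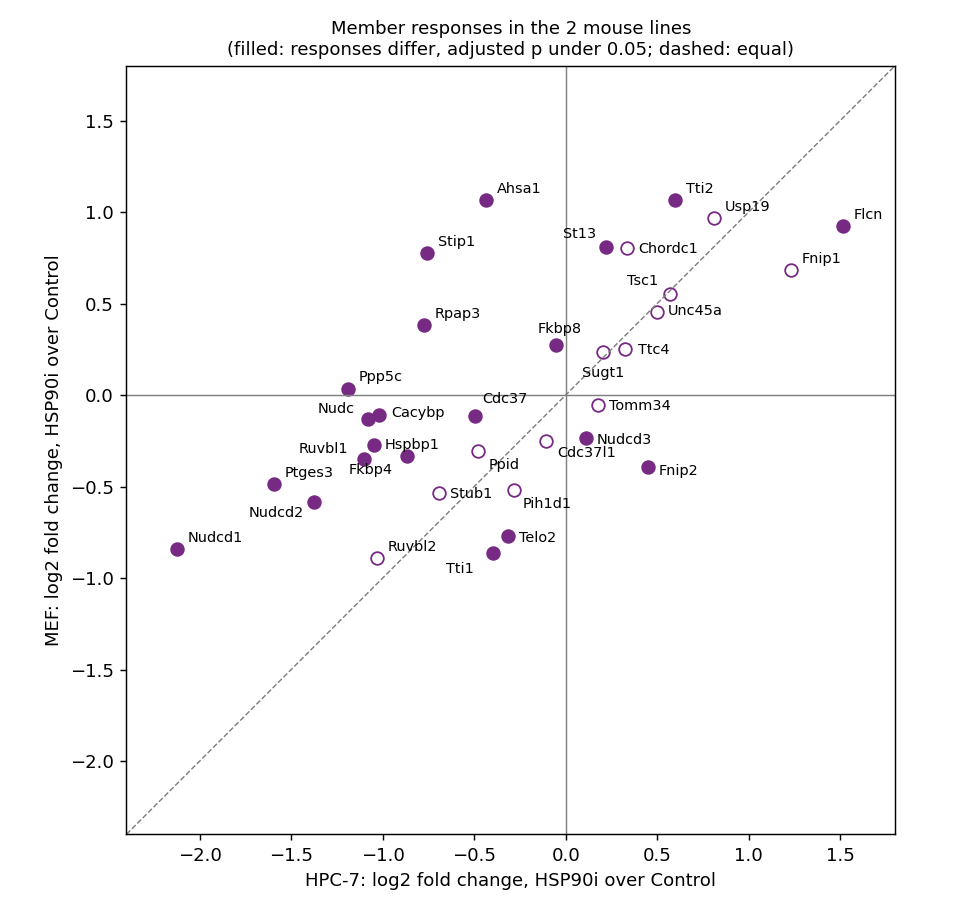
Log2 fold change (HSP90i over Control) in HPC-7 on the x axis and in MEF on the y axis for the 34 members, both from the fit over 12 mouse libraries. Filled points are the 21 members whose responses differed at an adjusted p under 0.05, and the dashed line marks equal responses. Ahsa1, Stip1 and Rpap3 lie at the upper left and Fnip2 at the lower right, and 16 of the filled points lie above the line.

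Levels without inhibitor also differed between the mouse lines. Of 34 members, 8 were higher in MEF Control and 19 in HPC-7 Control by the same fit, where 83.2% of all genes differed, 39.7% and 43.6% by side. With RLE factors the counts were 11 and 15, where 44.1% and 38.3% of all genes were. The group of FNIP1, FNIP2, FLCN and TSC1 lay on 1 side, with 4 of 4 higher in HPC-7. In the scaling over all 12 libraries, whose CPM differ from those above, FLCN had 45.6 ± 4.98 CPM in MEF and 121 ± 2.41 CPM in HPC-7 (SD, n = 3 each), which is 2.66-fold more in HPC-7 (adjusted p = 1.27e-09). TSC1 was 2.62-fold, FNIP2 2.28-fold and FNIP1 2.22-fold higher in HPC-7. The TPR immunophilins with PPP5C (4 of 4) and TTT (3 of 3) were also higher there, FKBP8 by 1.90-fold and TTI1 by 1.88-fold. On the MEF side NUDCD1 was 2.24-fold higher (55.5 ± 6.44 against 24.8 ± 1.74 CPM, SD, n = 3 each), STUB1 1.96-fold, UNC45A 1.72-fold and STIP1 1.71-fold. AHSA1 was at 206 ± 14.0 CPM in MEF and 204 ± 10.9 CPM in HPC-7 and was not called (log2 ratio 0.016 ± 0.086, adjusted p = 0.866). Small ratios depended on the scaling, and the calls of CHORDC1, FKBP4, NUDC, PIH1D1, RUVBL1, RUVBL2 and ST13 were each lost in at least 1 alternative.

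**Figure D4:**
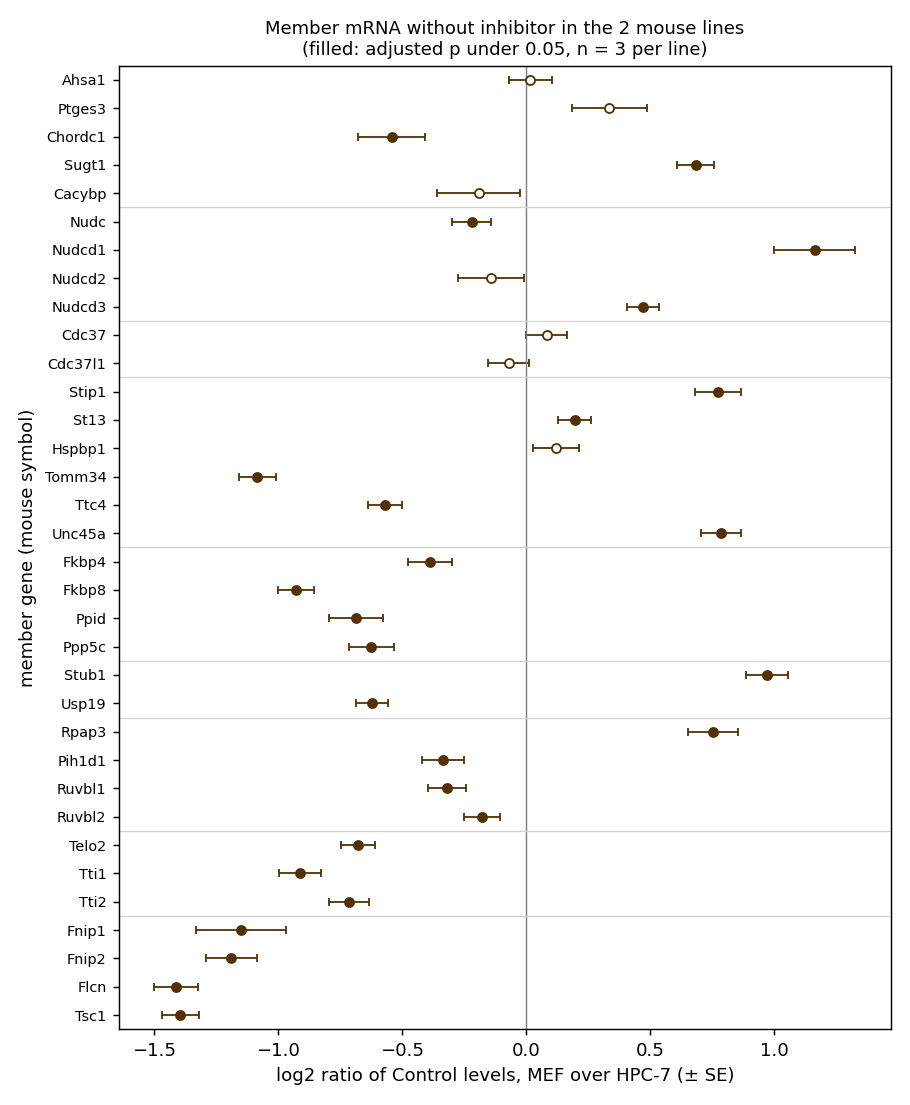
Log2 ratio of the Control levels, MEF over HPC-7, with its standard error for the 34 members in rows, grouped by role. Filled points passed edgeR's test at an adjusted p under 0.05 (n = 3 per line), 8 to the right of 0 and 19 to the left. Fnip1, Fnip2, Flcn and Tsc1 form the lowest block, between −1.15 and −1.41.

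Across the 34 members, log2 fold changes of MEF and HPC-7 had a Pearson r of 0.636 (Spearman rho 0.608), beside 0.553 (0.562) over 10356 genes. K562 and MEF gave 0.414 (0.521), beside 0.164 (0.162) over 9034 genes, and K562 and HPC-7 gave 0.037 (0.176), beside 0.122 (0.156) over 8659 genes. These values describe the points, which share libraries within a line and are not independent replicates.

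The chaperones that the members serve gave a reference for these changes. The HSP90 gene HSP90AA1 rose in K562 (3.20 ± 0.13) and MEF (1.21 ± 0.22) and fell in HPC-7 (−0.62 ± 0.15), where it went from 689.9, 652 and 676 to 347, 563 and 401 CPM. In HPC-7 3 of 4 HSP90 chaperone genes fell, the exception being HSP90AB1, which rose in each line (K562 2.39 ± 0.13, MEF 1.25 ± 0.05, HPC-7 0.67 ± 0.075). TRAP1, the mitochondrial HSP90, fell in HPC-7 from 190.3, 196 and 197 to 68.2, 89.0 and 69.0 CPM (−1.37 ± 0.10). Of 8 genes of the HSP70 system, K562 raised 8, MEF 7 and HPC-7 5, and 1 (HSPA4) fell in each mouse line. The nucleotide exchange factor HSPH1 rose by 4.34 ± 0.14 in K562 and 1.78 ± 0.046 in MEF, and the constitutive HSP70 gene HSPA8 by 3.91 ± 0.13 and 2.52 ± 0.067. HSPA8 rose in HPC-7 from 1274, 1286 and 1381 to 3897, 3838 and 4175 CPM (1.60 ± 0.077) and HSPH1 from 139, 131 and 134 to 237, 289 and 247 CPM (0.94 ± 0.085). In HPC-7, then, HSPA8 and HSPH1 went up in the same libraries in which AHSA1, STIP1, PTGES3 and FKBP4 went down. The largest increase among the 8 genes in HPC-7 was that of HSPA1B (4.66), for which the MEF response minus that of HPC-7 was −2.98. By the interaction test of edgeR, 4 of the 8 responses were more positive in MEF and 2 in HPC-7, where 25.4% and 17.8% of all genes were.

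Among other HSP90 co-chaperones outside the 34, 1 of 8 tested rose in K562, 5 rose and 4 fell of 9 in MEF, and 2 rose and 3 fell of 9 in HPC-7. Of all genes, 5.11% rose in K562, 35.1% rose and 38.2% fell in MEF, and 36.5% rose and 36.6% fell in HPC-7. AHSA2, a relative of AHSA1, rose in all lines (K562 0.85 ± 0.12, MEF 1.50 ± 0.071, HPC-7 0.89 ± 0.073), also in HPC-7, where AHSA1 fell. Its HPC-7 values were 88.5, 83.5 and 85.9 CPM in Control and 149, 159.7 and 170.0 CPM in HSP90i. FKBP5, an immunophilin whose gene is a target of the glucocorticoid receptor, itself an HSP90 client, fell in MEF from 44.9, 43.8 and 46.9 to 6.14, 7.80 and 7.39 CPM (−2.69 ± 0.10) and in HPC-7 from 77.2, 80.2 and 80.0 to 6.32, 18.9 and 6.48 CPM (−2.94 ± 0.31). In K562 it was not called (−0.26 ± 0.13, adjusted p = 0.237).

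Of the 6 tested genes listed as prefoldin-like partners of R2TP, 4 were lower and 1 (WDR92) higher in HPC-7, and 2 were lower and 2 higher in MEF. Beside this and the next lists, 38.2% of all genes fell and 35.1% rose in MEF. In HPC-7 36.6% fell and 36.5% rose, and 11.1% were called in K562. UXT had −0.82 ± 0.11 in HPC-7 and PFDN6 −0.60 ± 0.072 in MEF. Of the 6 kinases that TTT stabilises, 2 rose and 1 fell in each mouse line. TRRAP, a kinase relative that serves as a scaffold of histone acetyltransferases, rose in HPC-7 from 238, 248 and 242 to 544, 470.3 and 552 CPM (1.10 ± 0.078), and MTOR rose in MEF (0.58 ± 0.054). Of the 6 tested partners of FLCN and TSC1, 3 rose and 1 fell in HPC-7 and 2 rose and 3 fell in MEF. TFE3, a transcription factor that FLCN keeps out of the nucleus, rose in HPC-7 (0.85 ± 0.082), and the Rag GTPase gene RRAGA fell in MEF (−0.54 ± 0.053). In K562 none of these 3 lists had a call by edgeR, and the genes with the smallest p were URI1 (−0.31 ± 0.12), TRRAP (0.37 ± 0.25) and TFEB (−0.87 ± 0.30). At an unadjusted p under 0.05 they held 0 higher and 2 lower (R2TP partners), 0 and 0 (kinases), and 0 higher and 1 lower (FLCN and TSC partners).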

How the data were processed

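RNA was sequenced from 18 libraries, 3 Control and 3 HSP90i of each line. The deposited values are raw read counts per gene made by the authors, 1 table per line. The submitters' processing notes name Trim Galore, TopHat2 2.0.13, Picard and featureCounts among their tools and GRCh37, GRCm38, hg38 and mm10 among their builds, with no role given. Whether counting used strand, and how reads shared between near-identical copies were counted, was not found in the labels. Antisense partners and copies can therefore share counts.

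Genes were filtered with filterByExpr, scaled by TMM and tested with edgeR 4.0.16 (quasi-likelihood, R 4.3.3) at a Benjamini-Hochberg adjusted p under 0.05 over all genes tested in a comparison. CPM values are TMM-scaled, and each error of a log2 fold change is a standard error taken from the F statistic. The mouse lines were compared in 1 fit over 12 libraries, which joins 2 deposited tables with the same gene identifiers. DESeq2 1.42.0, RLE factors, library size alone, no filter, the replicate number as a block and leaving out each library were the alternatives. The test was also run on counts simulated from its own model with few changed genes. That setting is unlike the mouse lines, where most genes were called, so it cannot show how reliable the calls are. Figures were drawn with matplotlib 3.10.9.

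The 34 members and all gene lists were chosen with earlier results of these data known. Values in every library are given for members called alike in all lines, called in opposite directions in a pair of lines, with the smallest p of a role group, or with mouse responses that differ by at least 1 (log2), and for some others chosen after their values were seen. The peak list of the HSP90 ChIP-seq, from 1 immunoprecipitated library, was not used here.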

Additional observations from a re-analysis of the deposited data

Results flagged for a closer look

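The response to the inhibitor differed between MEF and HPC-7 for 21 of the 34 members by the interaction test of edgeR over 12 libraries (adjusted p under 0.05), where 43.2% of all tested genes differed. Every value is the MEF log2 fold change minus that of HPC-7, and the median over all genes was 0.11. The regulators and CS-domain cofactors gave 1.50 for AHSA1, 1.11 for PTGES3 and 0.91 for CACYBP. In the NUDC family the differences were 1.28 for NUDCD1, 0.95 for NUDC, 0.79 for NUDCD2 and, with the opposite sign, −0.35 for NUDCD3. Among the adaptors STIP1 gave 1.53, HSPBP1 0.77 and ST13 0.59. PPP5C gave 1.22, FKBP4 0.54, CDC37 0.38 and FKBP8 0.33. Of the assembly machines, RPAP3 gave 1.16, RUVBL1 0.75 and TTI2 0.46, whereas TTI1 gave −0.47 and TELO2 −0.46. FNIP2 (−0.84) and FLCN (−0.59) were more positive in HPC-7. These lines also differed in dose and in deposited table, which cannot be told apart from the line.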

How the results depend on the processing

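Of the calls reported, 7 of 9 in K562, 25 of 30 in MEF, 27 of 30 in HPC-7, 16 of 21 differences between the mouse responses and 20 of 27 differences between the mouse controls passed in every alternative that was run. RLE factors and DESeq2 each gave 8 members with the more positive response in HPC-7, against 5. The shares of all genes there were 22.5% and 22%, against 17.8%. With 1 library left out, K562 gave 7 to 17 members higher and 0 to 1 lower, MEF 10 to 14 and 16 to 18, and HPC-7 8 to 11 and 19 to 19. Of all genes, 1.25% to 14% were then higher and 1.24% to 14.6% lower in K562. The shares were 32.1% to 37.1% and 34.4% to 37.1% in MEF, and 33.1% to 36.7% and 33.5% to 37.2% in HPC-7. With 1 library left out the mouse responses gave 11 to 17 members more positive in MEF and 5 to 10 in HPC-7. Of all genes, 15.4% to 26.6% and 16.1% to 24% were. The mouse controls gave 8 to 11 members higher in MEF and 14 to 19 in HPC-7, where 37.9% to 43.4% and 36% to 44.1% of all genes were. In 30 of 170 values (34 members in 5 comparisons) at least 1 alternative changed the sign, 14 of them in K562, 8 between the mouse controls, 7 between the responses, 1 in MEF and 0 in HPC-7, and 28 of the 30 had not been called. Those where the value was called on either side were AHSA1 (−0.20) and ST13 (−0.019) between the mouse controls with library size alone, RUVBL2 there without HPC-7 Control replicate 3 (0.019, and −0.21 to 0.019 over all left-out libraries), and FKBP8 in K562 without Control replicate 1 (0.31, and −0.22 to 0.31 over all left-out libraries). The cause was not tested. Library size alone shifted the median of all genes to −0.13 in K562. There it called 3.23% of genes higher and 8.88% lower, and still 9 and 0 members. Between the mouse controls it shifted the median to −0.295. In that setting 7 members were higher in MEF and 23 in HPC-7, where 34.3% and 50.7% of all genes were.

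With the replicate number as a block, 12 members rose and 0 fell in K562, 11 and 17 in MEF, 9 and 19 in HPC-7, and the responses differed for 16 and 5. Of all genes the block called 6.48% higher and 6.97% lower in K562, 34.1% and 37.2% in MEF, and 34.6% and 34.8% in HPC-7. For the responses the shares were 23.3% and 16.5%. Same-numbered libraries deviated together with r of 0.281, 0.0417 and 0.451 in K562, 0.268, −0.223 and −0.245 in MEF, and 0.0064, 0.0235 and −0.0898 in HPC-7. Not every pair exceeded 0.1 in any line and the labels give no link, so the numbers were not taken as pairs. In K562 replicates 1 and 3, but not 2, correlated best with their own number, a hint from the data and not from the design. The block could not be estimated for the mouse controls, because it lies within a line, and the planned count of ChIP peaks near members was not run. CDC37L1 in K562 had counts as low as 30 in a library, which limits the size of change detectable there.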

Other observations

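A further motif was searched after the responses of FLCN and FNIP1 had been seen: the E-box CACGTG, the core bound by the TFE3 and TFEB family among other factors, which reads the same on both strands. It occurred in the promoter windows of 4 of 30 mouse members (Fnip1, Nudcd3, Stub1 and Telo2) and in 8.09% of all genes. The Nudcd3 window with the match, 6200402 to 6200701 on chromosome 11, lay inside its gene (6105691 to 6201619). The longer form TCACGTGA, which includes the core, occurred in Telo2 and in 1.12% of all genes. The Flcn window held neither. Of the 4 members with the core, Fnip1 was called higher in both mouse lines (its MEF call was lost in 6 of 12 alternative settings), Stub1 and Telo2 were called lower in both, and Nudcd3 was called lower in MEF and not called in HPC-7.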
